A study of Mus musculus with 18 samples.

Results

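CD4+ effector T cells from small intestine lamina propria (siLP) were compared with those from colon lamina propria (cLP), over wild type and CAR-deficient cells. The comparison uses 12 of the 18 libraries of the series, 6 from each organ, chosen by the organ named in their labels, and the 6 spleen libraries were left out. In each organ 3 libraries came from wild type cells, given as C57BL/6 CD45.1+, and 3 from CAR-deficient cells, given as C57BL/6 Nr1i3-/-, a deletion of the gene for the nuclear receptor CAR. All groups share the host and the time. The hosts were Rag-deficient mice, animals without their own lymphocytes, into which T cells had been transferred, and about 500 CD4+ effector T cells per library were sorted at week 3 after transfer. The recipients keep their own stroma, epithelium and myeloid cells, and the labels state neither how many animals were used nor whether animals were pooled.

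The lamina propria is the connective tissue under the gut epithelium. T cells reach it through the integrin alpha4 beta7, made of the products of Itga4 and Itgb7, and the chemokine receptor Ccr9 is known for guiding cells to the small intestine, while Gpr15 is known for guiding T cells to the colon. Once in the tissue, effector T cells respond to antigen and cytokines through AP-1, NF-kB and Nr4a factors and release cytokines and chemokines, such as Ccl3, Ccl4, Tnf and Ifng.

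The 12 libraries held 19713336 to 25436582 estimated counts each, with 15722 to 18819 genes detected. Levels are given as CPM, counts scaled to library size. Cd4 ran from 127 to 236 CPM and Cd3e from 739 to 1371 CPM in every library, with no more than 1.68 CPM of Cd8a. Column names carry no replicate numbers, so the 3 libraries of a group are called a, b and c after the ending of their column. The 4 libraries with ending a stood apart: their number of genes detected was 15722 to 16128, while the other 8 had 17013 to 18819, and 3.70% to 3.88% of their counts came from mitochondrial DNA, against 2.23% to 3.05%. In 2 of 6 pairs of siLP and cLP libraries with the same genotype and ending, wild type a and wild type b, the same T cell receptor segment led in both organs, and in the other 4 pairs the leading segments differed. Trbv26, a beta chain variable segment, took 67.3% (95% exact Clopper-Pearson interval 66.3 to 68.2) of all beta variable counts in the wild type cLP library a and 68.5% (67.6 to 69.3) in siLP library a. It took 57.0% (56.0 to 58.0) in wild type cLP library b and 52.0% (51.1 to 52.8) in siLP library b, and at most 0.727% (0.598 to 0.877) in the other 8 libraries. Whether libraries with the same ending come from the same animal is not stated in the labels. Results are therefore given without and with the ending as a term in the fit, and a pair below means the siLP and cLP libraries of the same genotype and ending.

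Nr1i3, the gene deleted in the CAR-deficient cells, was at or under 0.443 CPM in all 6 wild type libraries, so its level does not check the genotype labels here. The library labelled CAR-deficient siLP a held Nr1i3 at 9.47 CPM and the library labelled CAR-deficient cLP b at 1.45 CPM. Whether these counts fall in the deleted part cannot be read from values per gene.

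The number of genes that separated the organs depended on the test. Of 14306 genes, 1 (0.00699%) was lower in siLP and 0 (0%) were higher past an adjusted p of 0.05 (edgeR's quasi-likelihood test, Benjamini-Hochberg over all genes). DESeq2's Wald test called 232 genes in the same libraries and limma's voomWithQualityWeights 280. With the ending as a term 11 genes (0.0769%) were lower and 1 gene (0.00699%) was higher. At an unadjusted p under 0.05 there were 755 lower genes (5.28%) and 272 higher ones (1.9%). In all 6 pairs 551 genes (3.85%) were lower in siLP and 516 (3.61%) were higher. The median log2 difference over all genes was -0.02, so the scaling put the organs level. The labels do not say that the libraries came from separate animals, so the p-values describe only how these libraries spread.

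The gene that passed with higher levels in siLP was Ccl3, which encodes the chemokine CCL3, a product of activated T cells and macrophages. In wild type cells Ccl3 stood at 1205, 360 and 113 CPM in cLP libraries a, b and c and at 4301, 870 and 406 CPM in siLP. In CAR-deficient cells it stood at 1530, 429 and 121 CPM in cLP and at 6052, 2747 and 315 CPM in siLP. Ccl3 was higher in siLP in 6 of 6 pairs, although the organs overlapped, because both organs had their highest levels in library a and their lowest in library c. The difference was 1.89 ± 0.22 (log2, ± SE) with the ending term (adjusted p = 0.0097) and 1.93 ± 0.84 without it (adjusted p = 0.633). It was 1.91 in the a pairs, 1.97 in the b pairs and 1.61 in the c pairs, as mean differences of log2(CPM + 1). Ccl3 kept its side of the threshold in 10 of 12 fits that left out 1 library, and lost it without the CAR-deficient cLP library b or the wild type siLP library c (highest adjusted p = 0.061). The neighbouring gene Ccl4, a chemokine of the same family and chosen here after its values were seen, was also higher in siLP in 6 of 6 pairs, from 501 to 4523 CPM in cLP and from 795 to 11546 CPM in siLP. Its difference of 1.19 ± 0.19 with the ending term did not pass (adjusted p = 0.0628). In sorted bulk samples a larger number of expressing cells and more RNA per cell cannot be told apart.

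**Figure D1:**
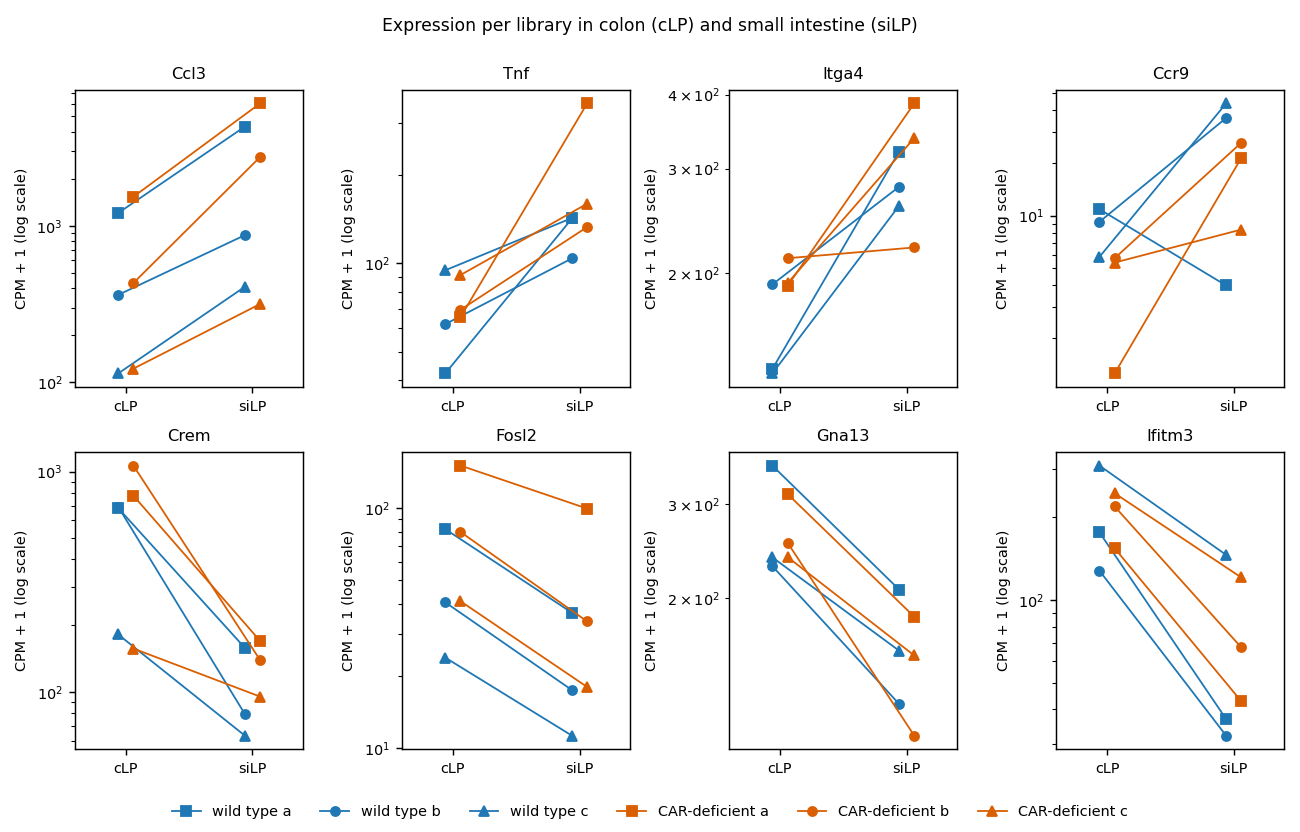
CPM + 1 on a log axis in cLP and siLP for 8 genes, 1 point per library; lines join libraries of the same genotype (colour) and column ending (marker shape). Ccl3, Tnf and Itga4 climb from cLP to siLP along all 6 lines and Ccr9 along 5, and Crem, Fosl2, Gna13 and Ifitm3 go down along all 6.

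Itga4, which encodes the alpha4 integrin chain that T cells use to leave the blood into gut tissue, was higher in every siLP library than in any cLP library. Its level was 137, 190 and 134 CPM in wild type libraries and 189, 211 and 191 CPM in CAR-deficient cLP libraries a, b and c. In siLP it was 319, 279 and 259 CPM in wild type libraries and 385, 220 and 337 CPM in CAR-deficient libraries. The 6 spleen libraries held 240 to 461 CPM, and the CAR-deficient siLP library b was the 1 siLP library below them. The difference was 0.78 ± 0.17 on the log2 scale and did not pass over all genes (adjusted p = 0.202, and 0.108 with the ending term). By an exact permutation of organ labels within genotype on log2(CPM + 1), two-sided, the Itga4 difference of 0.77 gave p = 0.005, the smallest that 400 assignments allow, and 0.0417 after adjustment over 25 single values. Kept within pairs, 64 assignments allow no p under 0.0312, and none of the 25 values passed after adjustment (Itga4 0.26). Itgb7, which encodes the partner chain, ranged from 75.1 to 356 CPM in cLP and from 63.0 to 357 CPM in siLP, a difference of -0.03 ± 0.46.

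The homing receptors of the individual organs leaned towards their organ without passing in all 12 libraries. Ccr9 stood at 9.89, 8.22 and 4.81 CPM in wild type libraries and 0.257, 4.72 and 4.40 CPM in CAR-deficient cLP libraries. In siLP it stood at 3.00, 35.1 and 42.7 CPM in wild type libraries and 20.4, 25.1 and 7.33 CPM in CAR-deficient libraries. It was higher in siLP in 5 of 6 pairs, the exception being the wild type a pair, with a difference of 2.15 ± 0.71 (adjusted p = 0.365; exact permutation p = 0.04, adjusted 0.167). Gpr15 was read almost only in libraries with ending c, at 50.1 and 36.7 CPM in wild type and CAR-deficient cLP against 12.3 and 5.55 CPM in siLP. In the other 8 libraries it was at most 1.87 CPM. Gpr15 was lower in siLP in 5 of 6 pairs and at 0 in both libraries of the wild type a pair, with a difference of -3.34 ± 0.80 with the ending term (adjusted p = 0.15). Itgae, which encodes the alphaE integrin chain that binds epithelial E-cadherin, overlapped fully, from 5.91 to 74.6 CPM in cLP and from 4.21 to 103 CPM in siLP.

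Of the 28 genes listed for gut homing and residency, 27 were tested, 12 had a difference above 0, and their median was -0.09. Of these, 3 were higher at an unadjusted p under 0.05 (Ccr9, Itga4 and Klf2; 1.9% over all genes) and 2 were lower (Ccr2 and Gpr183; 5.28% over all genes). Klf2, a factor that drives genes for leaving tissue, was higher in siLP in 6 of 6 pairs, from 86.8 to 256 CPM in cLP and from 169 to 526 CPM in siLP, with a difference of 1.03 ± 0.19 with the ending term (adjusted p = 0.0751). Ccr2, a receptor for monocyte-attracting chemokines, was lower in 6 of 6 pairs, at 227 to 325 CPM in cLP and 145 to 237 CPM in siLP. Gpr183, a receptor for oxysterols that positions lymphocytes, ranged from 154 to 419 CPM in cLP and from 53.9 to 254 CPM in siLP and was lower in 6 of 6 pairs. Cd69, a retention marker of tissue T cells, had a difference of -0.09 ± 0.33 with 1185 CPM or more in every library.

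Effector cytokines differed among themselves. Tnf, the inflammatory cytokine TNF, stood at 41.2, 61.1 and 93.6 CPM in wild type libraries and 64.5, 68.4 and 90.2 CPM in CAR-deficient cLP libraries. It stood at 141, 103 and 142 CPM in wild type libraries and 349, 132 and 158 CPM in CAR-deficient siLP libraries, with no overlap between the organs. The Tnf difference was 1.25 ± 0.28 (adjusted p = 0.205, and 0.121 with the ending term). Ifng, the defining cytokine of Th1 cells, was abundant in both organs, from 1400 to 3899 CPM in cLP and from 1204 to 7468 CPM in siLP. It was higher in siLP in 3 of 6 pairs, with a difference of 0.46 ± 0.46. Il10 was higher in siLP in 5 of 6 pairs, from 21.5 to 417 CPM in cLP and from 33.6 to 573 CPM in siLP (0.67 ± 0.57, adjusted p = 0.94). Il17a and Foxp3, which mark Th17 and regulatory T cells, were mostly under 10 CPM, with adjusted p values of 0.992 or above. Among 18 genes of the Th1 programme 11 had a difference above 0, beside 6947 of 14306 over all genes, and only Tnf (higher) and Fasl (lower) had an unadjusted p under 0.05.

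The other 11 genes that passed with the ending term were lower in siLP, and 4 of them are well expressed in T cells. Crem, a repressor of transcription induced by cyclic AMP, stood at 682, 691 and 181 CPM in wild type libraries and 776, 1064 and 156 CPM in CAR-deficient cLP libraries. In siLP it stood at 157, 78.2 and 62.2 CPM in wild type libraries and 169, 138 and 94.1 CPM in CAR-deficient libraries. Crem was lower in siLP in 6 of 6 pairs, with a log2 difference of -2.12 ± 0.29 (adjusted p = 0.0358), although library c of cLP overlapped with library a of siLP. Spleen libraries, scaled separately from the gut libraries, held 23.4 to 68.6 CPM of Crem. Fosl2, an AP-1 subunit, stood at 81.0, 39.5 and 22.8 CPM in wild type libraries and 150, 78.8 and 40.0 CPM in CAR-deficient cLP libraries. In siLP it stood at 35.7, 16.4 and 10.2 CPM in wild type libraries and 98.9, 32.7 and 16.9 CPM in CAR-deficient libraries, a difference of -1.11 ± 0.16 (adjusted p = 0.0455). Gna13, the G protein alpha subunit that couples sphingosine phosphate and lysophosphatidic acid receptors to RhoA, ranged from 229 to 353 CPM in cLP and from 110 to 207 CPM in siLP with no overlap (-0.80 ± 0.11, adjusted p = 0.0393). Ifitm3, an interferon-inducible membrane protein that limits virus entry, ranged from 127 to 307 CPM in cLP and from 31.1 to 145 CPM in siLP (-1.66 ± 0.25, adjusted p = 0.0455). Of 12 fits that left out 1 library, Crem passed in 2, Fosl2 in 1, Ifitm3 in 1 and Gna13 in 0, with the same sign in each fit.

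Lmna, which encodes lamin A and C of the nuclear envelope and is known to be turned on in tissue effector T cells as well as in stroma, was lower in siLP in 12 of 12 such fits. It ranged from 35.0 to 112 CPM in cLP and from 1.59 to 14.6 CPM in siLP, without overlap (-3.22 ± 0.35 with the ending term, adjusted p = 0.0097; -3.12 ± 0.47 without it, adjusted p = 0.0596). Spleen libraries, again scaled separately, held 2.18 to 8.61 CPM. The difference in Lmna was -2.39 in the a pairs, -3.82 in the b pairs and -2.87 in the c pairs.

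The other genes called lower in siLP are best known from cells other than T cells. Krt19, a keratin of simple epithelium, was the 1 gene called without the ending term (adjusted p = 0.0335, and 0.0097 with it). It was read in all 6 cLP libraries, at 0.225, 2.06 and 5.20 CPM in wild type libraries and 9.49, 46.0 and 4.76 CPM in CAR-deficient ones, and with a total of 1 count in the 6 siLP libraries. From summed counts Krt19 was 1666-fold lower in siLP (95% counting interval 299 to 65855), and 627-fold lower (112 to 24839) without the CAR-deficient cLP library b, which held 934 of its counts. Without the siLP library that held the 1 count, Krt19 was at least 460.0-fold lower against a floor of 3 counts over the group. Adamdec1, a protease of gut fibroblasts and macrophages, was at 0.731, 190 and 353 CPM in wild type libraries and 0.185, 202 and 399 CPM in CAR-deficient cLP libraries, against at most 3.47 CPM in siLP (-6.93 ± 0.50, adjusted p = 0.000643). The Adamdec1 difference thus lay in libraries b and c. Igfbp7, a secreted protein of vessels and fibroblasts, ranged from 6.79 to 112 CPM in cLP and from 0 to 4.72 CPM in siLP (-6.01 ± 0.55, adjusted p = 0.0031). Adamdec1 and Igfbp7 passed in 12 of 12 fits that left out 1 library, as Lmna did. Postn, a matrix protein of fibroblasts, was at 0 in the CAR-deficient cLP library a, at 9.11 to 115 CPM in the other 5 and at 1 count in all of siLP, 8847-fold lower by summed counts (interval 1587 to 349504) and at least 2475-fold lower, against the floor, without the siLP library that held that count. Fxyd6 and Cdc42ep5 reached at most 3.67 and 4.72 CPM. Krt19 passed in 9 of the 12 fits, Postn in 7, Fxyd6 in 4 and Cdc42ep5 in 1.

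Markers of other cells were counted in each library, because about 500 sorted cells can carry RNA of their neighbours. The summed level of the 17 listed markers of fibroblasts, endothelium, muscle and glia was 827 to 1604 CPM in the 4 cLP libraries with endings b and c and 108 and 231 CPM in those with ending a. In siLP it was 74.1 to 130 CPM in 5 libraries and 527 CPM in the wild type library a. In that wild type siLP library fibroblast genes made up most of the sum, with Dcn (decorin) at 257 CPM and Lum (lumican) at 131 CPM. This did not hold for every low sum. In the other 5 siLP libraries Dcn was at 3.03 to 34.7 CPM and Lum at most 11.4 CPM. The wild type cLP library a, with a sum of 108 CPM, held 0.169 CPM of Dcn and none of Lum. The endothelial markers Cdh5, Kdr and Lyve1 were at most 0.393 CPM in any library. Over all 6 libraries per organ the summed difference was -2.34 on the log2(CPM + 1) scale (exact permutation p = 0.025, adjusted 0.125). Of 10 tested members 9 were below 0. For each gene of the preceding paragraph the part of these cells in the result was not tested.

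Epithelial RNA also differed by organ. The 18 listed markers of epithelium in general summed to 33.4 to 412 CPM in cLP and 7.29 to 38.7 CPM in siLP, lower in siLP in 6 of 6 pairs, with a mean difference of -2.11 on the log2(CPM + 1) scale (exact permutation p = 0.005, adjusted 0.0417). The markers of colon epithelium summed to 7.37 to 90.6 CPM in cLP and 1.49 to 3.94 CPM in siLP without overlap (-2.56, exact permutation p = 0.005, adjusted 0.0417). Neither passed within pairs (adjusted p = 0.26). The markers of small intestine epithelium did not separate the organs as a sum, at 1.30 to 27.8 CPM in cLP and 1.43 to 16.5 CPM in siLP, and were higher in siLP in 3 of 6 pairs (0.38, exact permutation p = 0.615, adjusted 0.98). Single epithelial genes did, of which 4 are given here, Tff2 among them chosen after its values were seen. Mptx1, a pentraxin of intestinal epithelium, was read in all 6 cLP libraries at 1.31 to 46.5 CPM and at 0 in all 6 siLP libraries, at least 528-fold lower against a floor of 3 counts over the group, and at least 254-fold lower without the CAR-deficient cLP library a. Car1, a carbonic anhydrase of colon epithelium and of red cells, had 0.749 to 34.9 CPM in cLP and 0 in siLP. In the other direction, Defa24, an antimicrobial peptide of Paneth cells, was read in all 6 siLP libraries at 0.156 to 4.37 CPM and at 0 in all cLP libraries, at least 60.4-fold higher. Tff2, a peptide of stomach and duodenal glands, was read in 5 siLP libraries at 0.512 to 42.5 CPM and in none from cLP. None of Mptx1, Car1, Defa24 and Tff2 passed over all genes with 12 libraries (adjusted p of 0.0706 or above with the ending term). Mptx1 and Tff2 passed in the 8 libraries with endings b and c (adjusted p = 0.0382 and 0.0489), and in 0 and 3 of the 8 fits of those libraries that left out 1. Macrophage and monocyte markers summed to 82.9 to 225 CPM in cLP and 122 to 243 CPM in siLP, higher in siLP in 5 of 6 pairs (exact permutation p = 0.065, adjusted 0.232). The listed markers of CD8, NK, gamma delta and innate lymphoid cells summed to 2363 to 3432 CPM in cLP and 1760 to 3257 CPM in siLP, higher in siLP in 1 of 6 pairs (exact permutation p = 0.025, adjusted 0.125). The sums for neutrophils, dendritic cells, mast cells and eosinophils, B cells and red cells overlapped between the organs, with exact permutation p values of 0.555 or above.

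**Figure D2:**
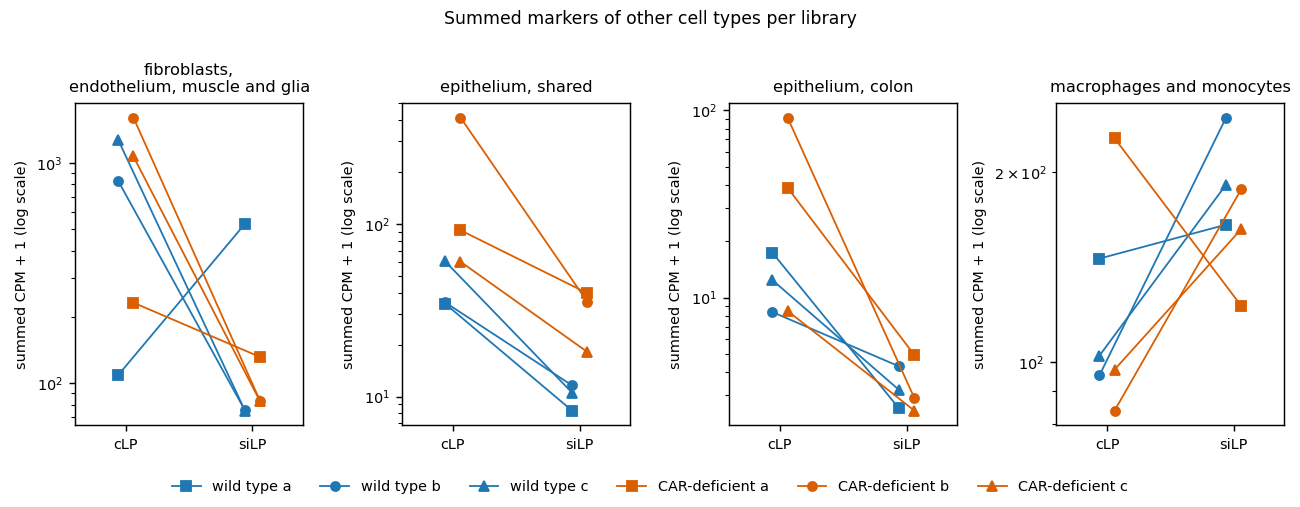
Summed CPM + 1 (log axis) of 4 marker lists in each library of cLP and siLP, joined by genotype (colour) and column ending (marker shape). Fibroblast-type markers are high in the 4 cLP libraries with endings b and c and in the wild type siLP library a, and both epithelial sums go down along all 6 lines.

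Because libraries with ending a differed in genes detected, mitochondrial share and fibroblast markers, the 8 libraries with endings b and c were also fitted alone, an analysis added after the data were seen. There 178 of 14857 genes (1.2%) were lower in siLP and 31 (0.209%) were higher past an adjusted p of 0.05, with the ending and the genotype as terms. Leaving out 1 of the 8 libraries in turn gave 55 to 141 genes, and 44 genes passed in 8 of 8 such fits. In the a pairs 20 of the 31 higher genes had the same sign, 10 the opposite sign and 1 no difference. Of the 178 lower genes 91 had the same sign there, 67 the opposite sign and 20 no difference. No share over all genes was set beside these counts. Of the 178 lower genes, 90 were under 1 CPM in every siLP library of the 8, and 50 were over 5 CPM in all 8.

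Markers of fibroblasts were among the lower genes. Of the 12 tested markers of fibroblasts, endothelium, muscle and glia 6 passed, all lower, beside 1.2% of all genes: Col1a1, Col1a2, Col3a1, Dcn, Lum and Pdgfra. Pdgfra passed in 3 of the 8 fits that left out 1 library and the other 5 in 8. Fibroblast markers were also a reason for setting the a libraries apart. The count of called markers therefore only describes these 8 libraries and is no separate support. Dcn was at 564.1 to 1048 CPM in the 4 cLP libraries and 3.03 to 9.13 CPM in the 4 siLP libraries with endings b and c, a difference of -6.94 ± 0.36 (adjusted p = 0.000172). In the a libraries Dcn was at 0.169 and 70.2 CPM in wild type and CAR-deficient cLP and at 257 and 34.7 CPM in siLP. The sign of the Dcn difference was thus the opposite there. Sparc, Bgn, Fbn1, Mmp2 and Cxcl12, other genes of stroma chosen here after the calls were seen, were also called lower.

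Other lower genes, chosen here after the calls were seen, are also known from T cells. Nfkbia, which encodes the NF-kB inhibitor that NF-kB itself induces, was at 1749 and 2114 CPM in wild type libraries and 1773 and 2146 CPM in CAR-deficient cLP libraries b and c. In siLP it was at 937 and 1232 CPM in wild type libraries and 902 and 1117 CPM in CAR-deficient libraries, a difference of -0.91 ± 0.08 (adjusted p = 0.0032). The a pairs did not share it, with 984 and 1340 CPM in cLP and 944 and 1525 CPM in siLP. Dusp5, a phosphatase that acts on the MAP kinase ERK, was at 266 to 359 CPM in cLP and 113 to 193 CPM in siLP (-1.07 ± 0.11, adjusted p = 0.0062). Rgcc, a regulator of the cell cycle, was lower by a log2 difference of -2.07 ± 0.24 (adjusted p = 0.0096), and in the a libraries it stood at 489 and 514 CPM in cLP against 251 and 227 CPM in siLP. Nfkbia, Dusp5, Rgcc, Lmna and Herpud1 passed in 8 of 8 fits that left out 1 library. Of the 28 tested early activation genes, Fosl2, Atf3, Nr4a3 and Dusp5 fell and Zfp36 rose, beside 1.2% lower and 0.209% higher over all genes. Fosl2 and Atf3 passed in 6, Nr4a3 in 2 and Zfp36 in 4 of the 8 fits. Of the 15 NF-kB feedback genes, Nfkbia and Tnfaip3 fell and 0 rose, and Tnfaip3 passed in 3 of the 8 fits. Of the 23 tested genes of the unfolded protein and integrated stress response, Atf3, Hspa5, Herpud1 and Dnajb9 fell and 0 rose, with a median of -0.49 beside -0.02 over all genes. Atf3 passed in 6, Dnajb9 in 1 and Hspa5 in 0 of the 8 fits. Herpud1, a part of endoplasmic reticulum quality control, was at 76.7 to 149 CPM over the 6 siLP libraries and 88.6 to 263 CPM over the 6 cLP libraries (-1.20 in the 8 libraries, adjusted p = 0.0062). Icos and Tnfsf11, a costimulatory receptor and the cytokine RANKL, fell as well (-0.996, adjusted p = 0.0257, and -1.52, adjusted p = 0.0144), but each lost its call in at least 3 of the 8 fits. Stromal cells also express several of these genes, and since the summed fibroblast markers moved with the organ in these 8 libraries, their part in each difference was not tested.

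**Figure D3:**
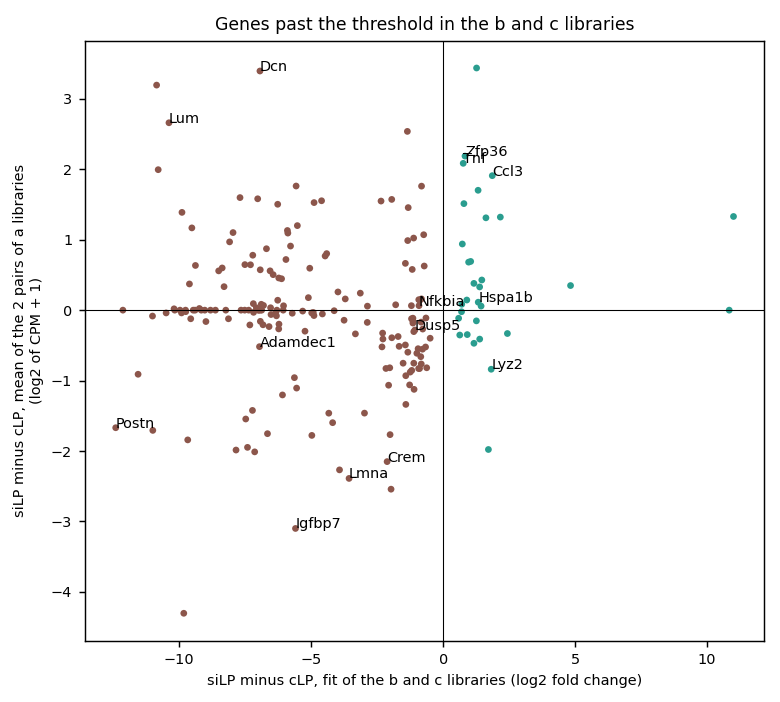
The 209 genes past the threshold in the 8 libraries with endings b and c, with their log2 fold change in that fit on the horizontal axis and, on the vertical axis, the mean difference of log2(CPM + 1) in the 2 pairs with ending a. Crem, Lmna and Igfbp7 lie below 0 on both axes, Dcn and Lum lie above 0 in the a pairs, and many strongly negative genes lie near 0 there.

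Of the 31 genes higher in siLP in the 8 libraries, Hspa1b and Hspa1a passed in 8 of 8 fits that left out 1 library. Hspa1b and Hspa1a, which encode the inducible HSP70 chaperone from near-identical genes whose counts may be split uncertainly, rose by 1.33 ± 0.12 (adjusted p = 0.0041) and 1.39 (adjusted p = 0.0061). Hspa1b was at 243 to 385 CPM in the 4 cLP libraries and 646 to 786 CPM in the 4 siLP libraries. In the a libraries the Hspa1b range was 180 to 358 CPM in cLP and 251 to 301 CPM in siLP. The a pairs did not share the rise of Hspa1a (-0.41), which was at 124 to 195 CPM in cLP and 92.4 to 147 CPM in siLP. Of the 16 heat shock genes Hspa1a and Hspa1b rose and Hspa5 fell, and the median was -0.07. Hist1h2ap, Hist1h2bj, Hist1h3e and Hist1h4n, which encode histones and were chosen after the calls were seen, also passed with higher levels, in 2, 5, 0 and 5 of the 8 fits. Hist1h2ap was lower in siLP in the a pairs (-0.35). Hist1h4n was at 7.97 to 26.7 CPM in the 4 cLP libraries and 26.3 to 89.6 CPM in the 4 siLP libraries and was higher in siLP in 6 of 6 pairs. Of 28 cell cycle genes 0 passed in either direction, with a median of 0.43. Ccl3, Tnf, Ccr9, Klf2 and Zfp36 also rose, at 1.86 ± 0.30, 0.76 ± 0.12, 2.17 ± 0.40, 0.79 ± 0.12 and 0.83 ± 0.12 on the log2 scale (adjusted p from 0.0184 for Zfp36 to 0.0476 for Ccr9). Of the 8 fits that left out 1 library, Ccl3 passed in 3, Tnf in 0, Ccr9 in 1 and Klf2 in 1. Of 14 tested macrophage and monocyte markers 2 rose and 0 fell, beside 0.209% higher and 1.2% lower over all genes. These were C1qb and Lyz2, each holding in 2 of the 8 fits, with Lyz2 at 7.91 to 21.2 CPM in cLP and 24.6 to 118 CPM in siLP. The a pairs did not share either rise, with mean differences of log2(CPM + 1) of -1.98 for C1qb and -0.84 for Lyz2. There Lyz2 was at 64.2 and 70.5 CPM in cLP and 32.8 and 42.1 CPM in siLP. Macrophages are a known source of Ccl3 and Tnf, and their part in these differences was not tested.

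Promoter sequences are shown for genes with transcripts that were called, so that the letters upstream of a chemokine, a cytokine and interferon-inducible genes can be set side by side. They are RefSeq's, of build GRCm38.p6, from 250 bases before the start site to 50 bases after it, 5′ to 3′ on the gene's own strand. Capitals mark matches on either strand to the TATA box TATAAA (in 13.62% of the 32851 promoters of that length in the table), an AP-1 site TGANTCA (7.808%), a kappaB site, GGGA, 2 bases of any kind and TTCC (1.467%) or an interferon response element, GAAA, 2 bases of any kind and GAAA (3.443%). Of the 8 genes looked up, 7 had an entry, and Ccl4 had none. The windows of Itga4 and Fosl2 are not shown. The Fosl2 window held 1 interferon response element, 221 bases before the start, and the Itga4 window none of the 4 motifs. The first pair, on chr11:83649329-83649628 (minus strand) and chr17:35201958-35202257 (minus strand), belongs to the genes of secreted mediators that were higher in siLP.
Ccl3: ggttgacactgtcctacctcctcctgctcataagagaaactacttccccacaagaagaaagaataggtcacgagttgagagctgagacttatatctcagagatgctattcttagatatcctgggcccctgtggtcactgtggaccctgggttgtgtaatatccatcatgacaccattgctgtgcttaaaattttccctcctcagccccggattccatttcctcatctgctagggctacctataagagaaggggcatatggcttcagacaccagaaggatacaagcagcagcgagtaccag
Tnf: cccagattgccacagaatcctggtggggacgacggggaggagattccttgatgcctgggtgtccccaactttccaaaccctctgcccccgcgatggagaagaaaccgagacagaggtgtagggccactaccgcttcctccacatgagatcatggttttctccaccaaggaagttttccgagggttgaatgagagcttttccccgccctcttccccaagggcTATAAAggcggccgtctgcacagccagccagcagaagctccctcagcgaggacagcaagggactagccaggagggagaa
The next pair, on chr2:62646206-62646505 (minus strand) and chr11:72301379-72301678 (plus strand), belongs to interferon-inducible genes that were higher in siLP in the libraries with endings b and c. The last, on chr7:141010695-141010994 (minus strand), belongs to an interferon-inducible gene that was lower in siLP.
Ifih1: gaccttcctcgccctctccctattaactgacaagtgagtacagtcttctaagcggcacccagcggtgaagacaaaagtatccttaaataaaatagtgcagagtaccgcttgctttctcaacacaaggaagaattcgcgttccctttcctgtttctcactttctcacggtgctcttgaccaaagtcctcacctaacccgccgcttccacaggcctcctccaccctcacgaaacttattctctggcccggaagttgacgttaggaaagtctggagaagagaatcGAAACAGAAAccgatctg
Xaf1: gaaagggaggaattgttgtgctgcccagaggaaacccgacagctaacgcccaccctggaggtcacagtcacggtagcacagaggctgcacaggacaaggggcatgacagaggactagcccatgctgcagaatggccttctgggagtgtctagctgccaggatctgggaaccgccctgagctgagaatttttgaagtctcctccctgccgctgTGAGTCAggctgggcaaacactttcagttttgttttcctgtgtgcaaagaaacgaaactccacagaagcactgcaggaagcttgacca
Ifitm3: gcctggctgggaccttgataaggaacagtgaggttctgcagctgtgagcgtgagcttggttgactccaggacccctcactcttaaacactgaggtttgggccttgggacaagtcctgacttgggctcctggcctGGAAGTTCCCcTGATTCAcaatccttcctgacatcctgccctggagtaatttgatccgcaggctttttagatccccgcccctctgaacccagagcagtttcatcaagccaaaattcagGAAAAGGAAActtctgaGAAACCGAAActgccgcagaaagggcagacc
The Ccl3 window held none of the 4 motifs as spelled, and the Tnf window held a TATA box 29 bases before the start. The Ifih1 window had 1 interferon response element and the Xaf1 window 1 AP-1 site. In the Ifitm3 window a kappaB site and an AP-1 site lay before the start and 2 interferon response elements after it. A match is a description of letters only.

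Interferon-inducible genes named here differed in direction. Ifih1, an RNA sensor of the cytoplasm, was at 36.6 and 35.4 CPM in wild type libraries and 24.6 and 32.9 CPM in CAR-deficient cLP libraries b and c, against 89.3 and 77.7 CPM and 73.1 and 72.2 CPM in siLP (1.26 ± 0.16 in the 8 libraries, adjusted p = 0.0109). The a pairs did not share it, with 72.5 and 20.9 CPM in cLP and 73.1 and 16.6 CPM in siLP. Xaf1, a promoter of cell death, was at 108 to 136 CPM in cLP and 173 to 327 CPM in siLP in the 8 libraries (1.04 ± 0.13, adjusted p = 0.0121). Phf11c, chosen like Ifih1 and Xaf1 after its values were seen, was higher in siLP in 6 of 6 pairs, and in the 8 libraries its difference was 0.97 ± 0.12 (adjusted p = 0.0101). Ifih1 passed in 7, Xaf1 in 5 and Phf11c in 6 of the 8 fits that left out 1 library. Phf11a, Ifit1bl1 and Dtx3l, also chosen after the calls were seen, rose in the 8 libraries and passed in 7, 2 and 0 of these fits. Ifitm1 and Irf1, chosen in the same way, fell in the 8 libraries and passed in 2 and 1. Ifitm3 and Cxcl10 were lower in siLP in 6 of 6 pairs. Cxcl10, a chemokine induced by interferon gamma, ranged from 117 to 287 CPM in cLP and from 43.4 to 245 CPM in siLP, with a difference of -1.31 ± 0.24 with the ending term (adjusted p = 0.0751). Of the 34 listed interferon response genes 23 were above 0 (67.6%, beside 48.6% over all genes), with a median of 0.17 in the 12 libraries. In 6 of 6 pairs 2 were higher and 1 lower, beside 3.61% and 3.85% over all genes. Mx1, the listed gene with the smallest p, was higher in 6 of 6 pairs (1.22 ± 0.43, adjusted p = 0.429). Ifih1, Xaf1 and Phf11c are not on that list. In the 8 libraries Socs1, an inhibitor of cytokine signalling, fell, though in 0 of the 8 fits that left out 1 library, and 0 of the list rose.

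The remaining programmes were described by their tested members in the 12 libraries. Genes of the unfolded protein and integrated stress response had the most members at an unadjusted p under 0.05 among the 30 programme lists, with 6 of 22 lower and 0 higher, beside 5.28% lower and 1.9% higher over all genes. Nupr1, a stress-induced nuclear protein, ranged from 10.9 to 41.3 CPM in cLP, had a median of 3.59 CPM in siLP and was lower in 6 of 6 pairs (-1.94 ± 0.59, adjusted p = 0.291). Of 15 genes of the TGF-beta response 4 were lower and 0 higher at that level (5.28% and 1.9% over all genes), among them Tgfbr1, a receptor chain, from 13.5 to 50.4 CPM in cLP and from 7.14 to 15.7 CPM in siLP. Of 13 mitochondrial DNA genes 12 were below 0 and 4 were lower in 6 of 6 pairs, with a median of -0.23, while 0 had an unadjusted p under 0.05. The mitochondrial share itself was lower in siLP in 5 of 6 pairs (mean 2.85% ± 0.69 in siLP and 3.00% ± 0.73 in cLP, SD, n = 6; exact permutation p = 0.72). Of 19 Th17 genes 4 were above 0, and Rora, a factor shared by Th17 and innate lymphoid cells, was lower in 6 of 6 pairs, at 281 to 572 CPM in cLP and 193 to 464 CPM in siLP. Of 15 tested genes handling bile acids and xenobiotics, a general list not confined to targets of CAR, 7 were above 0. Abcb1a, the drug exporter MDR1, ranged from 21.02 to 71.4 CPM in cLP and from 17.4 to 73.9 CPM in siLP (-0.22 ± 0.36, adjusted p = 0.984). Ahr, the aryl hydrocarbon receptor, followed the ending, with at most 0.9 CPM in the a libraries and 19.0 to 38.4 CPM in the c libraries, and its organ difference was -0.34 ± 1.399. Dnaja1, an HSP40 co-chaperone, was lower in each siLP library than in any cLP library, at 832 to 1447 CPM in cLP and 517 to 748 CPM in siLP (-0.70 ± 0.18, adjusted p = 0.232). Jun, an AP-1 subunit, ran against Fosl2, at 42.0 to 101 CPM in cLP and 93.6 to 195 CPM in siLP, higher in 6 of 6 pairs (1.17 ± 0.27, adjusted p = 0.205).

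**Figure D4:**
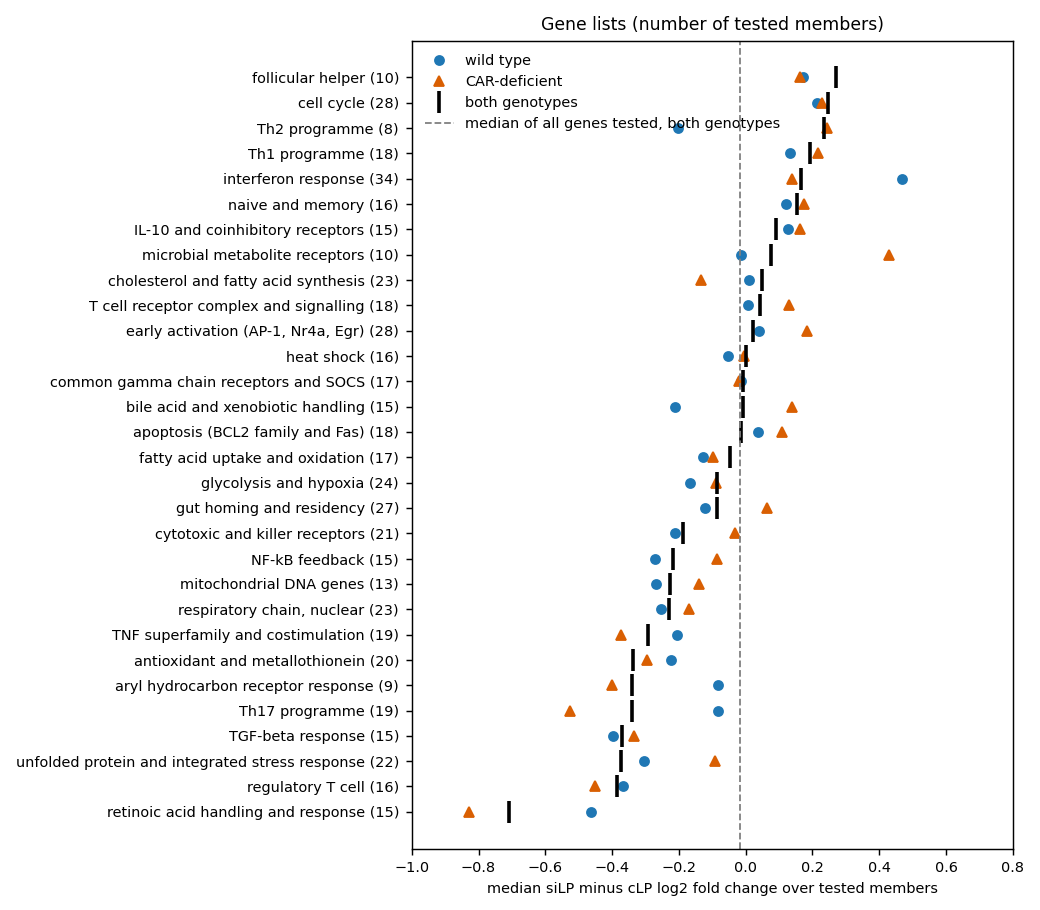
Median siLP minus cLP log2 fold change over the tested members of 30 gene lists, for both genotypes together (bars) and for wild type (circles) and CAR-deficient cells (triangles), with the number of tested members beside each name and the median of all genes as a dashed line. Medians lie between -0.71 for retinoic acid handling and 0.27 for follicular helper genes.

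The genotypes were then compared in the direction of the organ difference. In wild type cells 0 of 14306 genes (0%) passed, and in CAR-deficient cells 0 (0%), with 541 and 757 at an unadjusted p under 0.05. Chance alone would give about 715 in each test, so neither number stands clearly above chance. With the ending term 1 gene passed in each genotype. Among the 9308 genes that averaged 5 CPM or more in an organ, 63.6% shared their sign between genotypes. Of these genes 280 had an unadjusted p under 0.05 in wild type cells, and 252 of these (90%) had the same sign in CAR-deficient cells, 70 of 87 higher and 182 of 193 lower ones. Of 341 such genes in CAR-deficient cells 286 (83.9%) had the same sign in wild type cells, 82 of 107 higher and 204 of 234 lower ones. Over all 14306 genes 61.3% shared their sign. Both sides of this comparison use different libraries, but libraries of the same ending deviated together, which the shares above do not remove.

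All 12 genes called with the ending term had the same sign in both genotypes, which a call on both genotypes together favours. Ccl3 differed by 1.73 ± 1.22 in wild type cells and by 2.13 ± 1.24 in those without CAR, Lmna by -3.11 ± 0.69 and -3.12 ± 0.69, and Crem by -2.38 ± 0.68 and -2.31 ± 0.68. Itga4 differed by 0.89 ± 0.26 and 0.67 ± 0.25 and Ccr9 by 1.82 ± 1.02 and 2.48 ± 1.05. The test of the difference itself, the interaction of genotype and organ, called 0 of 14306 genes (0%). It had 240 genes at an unadjusted p under 0.05, against about 715 by chance. Its intervals were wide: for Ccl3 the difference between genotypes was 0.40 ± 1.68 and for Itga4 -0.22 ± 0.36. The 3 genes with the smallest interaction p in each direction, among those at 5 CPM or more in a group, were Guca2a, Phf8, Gatb, Tcrg-V1, Olfr1444 and B4galnt2 (p from 0.002 to 0.0127, adjusted p of 0.9999). Phf8, a histone demethylase, was at 11.5 to 21.9 CPM in wild type cLP and 23.6 to 32.3 CPM in wild type siLP, and at 21.7 to 46.7 CPM in CAR-deficient cLP and 10.8 to 11.9 CPM in CAR-deficient siLP. Guca2a, the precursor of guanylin from gut epithelium, was at 0 in all CAR-deficient siLP libraries and at most 0.764 CPM in wild type ones.

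**Figure D5:**
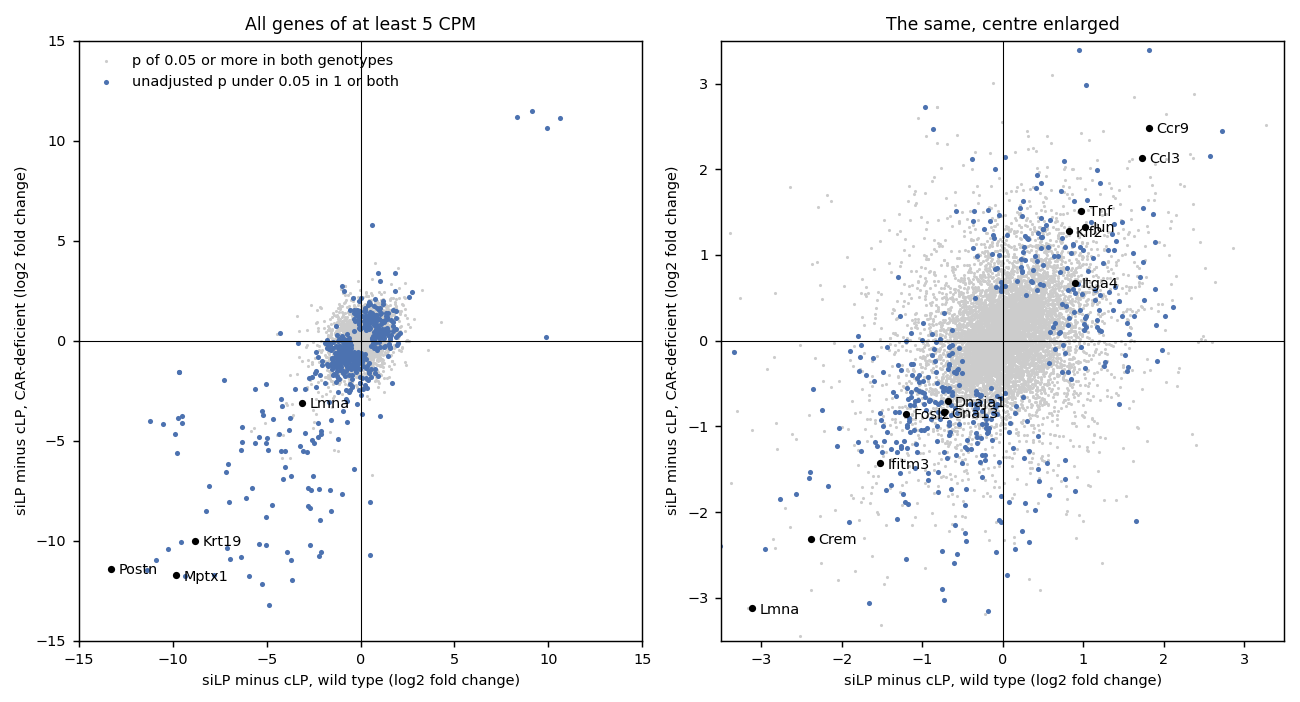
Log2 fold change from cLP to siLP in wild type cells (horizontal) and CAR-deficient cells (vertical) for genes averaging 5 CPM or more in an organ, over the whole range on the left and the centre on the right. The labelled genes were picked for having the same sign in both genotypes or for the text, so their place is no evidence of agreement, and blue points have an unadjusted p under 0.05 in 1 or both genotypes.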

How the data were processed

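The authors deposited 1 table for 34162 mouse genes with estimated counts, per the file headers, and 38.5% of the values used were not whole. Salmon, DESeq2 and the build mm10 stand in the submitters' processing notes without versions or roles, and the annotation is not given in the sources used here. Per the labels' protocols, cDNA was made with Clontech's SMART-Seq v4 ultra low input chemistry, and NEBNext Ultra II DNA reagents served for the libraries. The 18 count columns were read, and 37 other columns (abundance, length, import settings) were not used. Columns named CD45.1 negative were taken as CAR-deficient by elimination. All genes matched a symbol in GENCODE vM21 of GRCm38.

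Expected counts were rounded. Genes were kept with edgeR's filterByExpr in the 12 gut libraries (14306 genes), scaled by TMM and fitted with glmQLFit on genotype and organ, or on 4 group means for each genotype and the interaction. glmQLFTest was two-sided, with Benjamini-Hochberg adjustment over all genes and a threshold of 0.05. Counting intervals and floors (3 counts, or 0.107 to 0.185 CPM) cover counting error only, since reads carry no molecular identifiers. Only the fit of both genotypes together without the ending term was tried on simulated counts. These had no shared effect of the ending, so the fits with the ending term were not covered. The tools were edgeR 4.0.16, DESeq2 1.42.0 and limma 3.58.1 in R 4.3.3.

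Pairing by the column ending was checked from the deviations of libraries from their group means. For siLP and cLP of the same genotype and ending the correlation was over 0.1 in 6 of 6 pairs (0.11 to 0.315), against 1 of 12 for other endings. Deviations from a group's own mean cancel out, so positive correlations within endings force negative ones elsewhere. The 1 of 12 is thus no separate support. Between different groups of either genotype, libraries with the same ending passed 0.1 in 16 of 18 pairs (0.0255 to 0.410, median 0.190). These 18 include the 6 above. The shared deviation was not particular to siLP and cLP of the same genotype. The ending was treated as a pairing from the data, not the labels, and this was decided with both fits in view. The 41 gene lists (30 programmes, 11 sets of markers) and the compared groups were chosen with earlier results of these data known. Genes were named by rule: in each direction those past the threshold or, where under 5 passed, the 5 with the smallest p, the same sign in both genotypes and at least 5 CPM in an organ; from each list up to 4 past the threshold or the 1 with the smallest p; for the interaction the 3 with the smallest p in each direction; and the homing, cytokine and CAR-related genes in every case. Genes called with the ending term or in the fit of endings b and c, and those said to be chosen after their values were seen, came later. Alternatives were another normalization, no filter, DESeq2, limma with sample weights, robust fitting, all 18 libraries, the replicate block, other pseudocounts and leaving out each library.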

Additional observations from a re-analysis of the deposited data

Results flagged for a closer look

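In 25 single values, each screened in the 6 libraries of either organ (50 groups), 5 had a library far from the others by Dixon's ratio of its gap to the whole range (critical value 0.625), and chance flags about 1 group in 20. Ccr9 was far lower in the CAR-deficient cLP library a than in the other cLP libraries (ratio 0.6749), at 0.33 on the log2(CPM + 1) scale against 2.43 for the nearest. In the same library Abcb1a was far lower than in the others (ratio 0.6837), at 4.46 against 5.63. Il17a was far higher in the wild type siLP library c (ratio 0.8335), at 4.88 against 0.81. The summed neutrophil markers were far higher in the wild type siLP library b (ratio 0.6691), at 4.24 against 2.61. The summed markers of fibroblasts, endothelium, muscle and glia were far higher in the wild type siLP library a (ratio 0.7132), at 9.04 against 7.04.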

How the results depend on the processing

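The number of genes called depended strongly on the tool. For both genotypes together the count of 1 became 232 with DESeq2's Wald test (204 lower in siLP), 280 with limma's voomWithQualityWeights (239 lower), 8 without a filter on low counts, 0 with all 18 libraries, and 12 with the column ending as replicate block. Leaving out 1 library gave 0 to 10, the highest without the wild type cLP library a. DESeq2 called 34 genes in wild type cells, 85 in CAR-deficient cells and 3 for the difference between genotypes, where edgeR called 0. The replicate block called 1 gene in each genotype. With the ending term the count of 12 became 465 with DESeq2, 648 with voomWithQualityWeights and 209 in the libraries with endings b and c alone, and leaving out 1 library gave 3 to 15. In the fit of endings b and c, the count of 209 became 1132 with DESeq2 and 339 with voomWithQualityWeights, and leaving out 1 library gave 55 to 141, the lowest without the CAR-deficient cLP library b. No named gene or single value turned its direction in a call under the alternatives run. The cause of these changes was not tested. Calls rest on 6 libraries per organ with a common coefficient of variation of 0.807, or 0.72 with the ending term, and genes near the floor of 3 counts carry wide intervals.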

Other observations

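Further genes of T cells were called in the 8 libraries with endings b and c, and 4 of them are given here, chosen after the calls were seen. Art2b, which encodes an ADP-ribosyltransferase on the T cell surface, was at 20.7 to 47.1 CPM in cLP and 76.9 to 98.3 CPM in siLP (1.38, adjusted p = 0.0297) and was also higher in siLP in the a pairs. Bhlhe41, a transcription factor of differentiated T cells, was abundant, at 1555 to 1980 CPM in cLP and 1980 to 3133 CPM in siLP (0.59, adjusted p = 0.0303), and the a pairs did not share its direction. Ezh2, the histone methyltransferase of the Polycomb complex, was at 51.6 to 63.0 CPM in cLP and 83.6 to 110 CPM in siLP (0.70, adjusted p = 0.0417), again not shared by the a pairs. Ifi203, an interferon-inducible PYHIN gene, was at 215 to 297 CPM in cLP and 311 to 527 CPM in siLP (0.71, adjusted p = 0.0489). Of 8 fits that left out 1 library, Art2b passed in 3, Bhlhe41 in 1, Ezh2 in 0 and Ifi203 in 1.

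P2ry10, a receptor for lysophospholipids on lymphocytes, was lower in siLP in 6 of 6 pairs, at 97.6 to 302 CPM in cLP and 49.0 to 137 CPM in siLP. Its difference was -1.19 ± 0.20 with the ending term (adjusted p = 0.0713) and -1.27 ± 0.24 in the 8 libraries (adjusted p = 0.0489, kept in 1 of 8 fits that left out 1 library). Ly6c1, a surface marker of memory T cells and endothelium, was at 7.55 to 35.2 CPM in cLP and 0.327 to 3.82 CPM in siLP without overlap (-3.63 ± 0.66 with the ending term, adjusted p = 0.0751). The leading T cell receptor beta variable segment in CAR-deficient libraries was not the same in cLP and siLP of any ending. In cLP it was Trbv5, Trbv16 and Trbv16, and in siLP it was Trbv17, Trbv13-2 and Trbv13-1, in libraries a, b and c.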
